A study of Sus scrofa with 14 samples.

Results

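Toll-like receptors (TLR) 1 to 10 were followed in mucosal scrapings of pig small intestine that had been perfused with onion digest or with a control digest. The members were the probes of the pig array whose RefSeq accession belongs to a gene with a symbol from TLR1 to TLR10. Of the 43603 probes on the array, 13 met this rule. They stood for 9 of the 10 receptors, out of 3020 genes that could be named through an accession. TLR3 had 2 probes, TLR4 had 4 and TLR1, TLR2, TLR6, TLR7, TLR8, TLR9 and TLR10 had 1 each. TLR5, the flagellin receptor, had no probe with a matching accession and was not analysed here.

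Toll-like receptors are single-pass membrane proteins that recognise conserved microbial molecules through leucine-rich repeats and signal through a cytosolic TIR domain. At the cell surface, TLR2 pairs with TLR1 or TLR6 to detect bacterial lipopeptides, TLR4 detects lipopolysaccharide together with LY96 and CD14, and TLR10 belongs to the same subfamily as TLR1 and TLR6. In endosomes, TLR3 detects double-stranded RNA, TLR7 and TLR8 detect single-stranded RNA and TLR9 detects unmethylated CpG DNA. All except TLR3 signal through the adaptor MYD88, TLR3 signals through TICAM1, and TLR4 uses both routes towards NF-kappaB and interferon regulatory factors. In the intestine, TLR are carried by enterocytes and by macrophages, dendritic cells and lymphocytes of the lamina propria.

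In the SISP technique (small intestinal segment perfusion, carried out in situ), segments of an anaesthetised pig with their blood supply intact are perfused through a tube. All pigs were male and 5 weeks old, and the segments were labelled as jejunum. Pigs 1, 2 and 4 gave a segment perfused with yellow onion digest (YOd) and pigs 5, 6, 7 and 8 a segment with white onion digest (WOd), and each of these 7 pigs also gave a segment with saline digest (Sd), all for 6 h. Sd is saline put through the same in vitro digestion. The diluent before perfusion was peptone for the onion digests and saline for Sd, and the onion digests were diluted less than Sd. The groups thus differed in more than onion. No pig received both onions, and each segment gave 1 array, or 14 arrays in all.

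Levels were measured on 1-colour Agilent arrays and are given as percent of the 75th percentile of the signal on the same array. Because each probe binds with its own efficiency, a level can be compared between arrays but not between receptors. Values under 4.64% were raised to that value, the floor. Of the probes of an array, 50.6% to 70.7% were well above background, and precision is limited by how few arrays there were. The Sd array of pig 8 had the lowest of these shares and the most outlier spots, 462. Enterocyte markers were at the top of the scale, since 5 of the 9 fixed markers were named and all 5 were saturated on 13 of the 14 arrays. One array stood apart in its B cell markers. Of the 5 B and plasma cell markers reported here, 2 were named, CD79A, a part of the B cell receptor complex, and MS4A1 (CD20). Their summed level was 274% in the Sd segment of pig 6 and between 9.27% and 28.1% on the other 13 arrays. In RNA of whole scrapings, fewer cells of a type and less RNA per cell cannot be told apart.

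Transcripts of 6 receptors were well above background in every segment, namely TLR1, TLR2, TLR3, TLR4, TLR6 and TLR8. TLR7 was well above background on 12 of the 14 arrays, TLR9 on 11 and TLR10 on 9. Among the 7 Sd arrays, TLR7 was well above background on 7, TLR9 on 6 and TLR10 on 5. No TLR probe was saturated on any array. Of the 4 TLR4 probes, 2 were well above background on each of the 14 arrays, 1 on 12 and 1 on 4. By the floor, a separate criterion, TLR7 was above it on 12 arrays, TLR9 on 11 and TLR10 on 7.

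**Figure D1:**
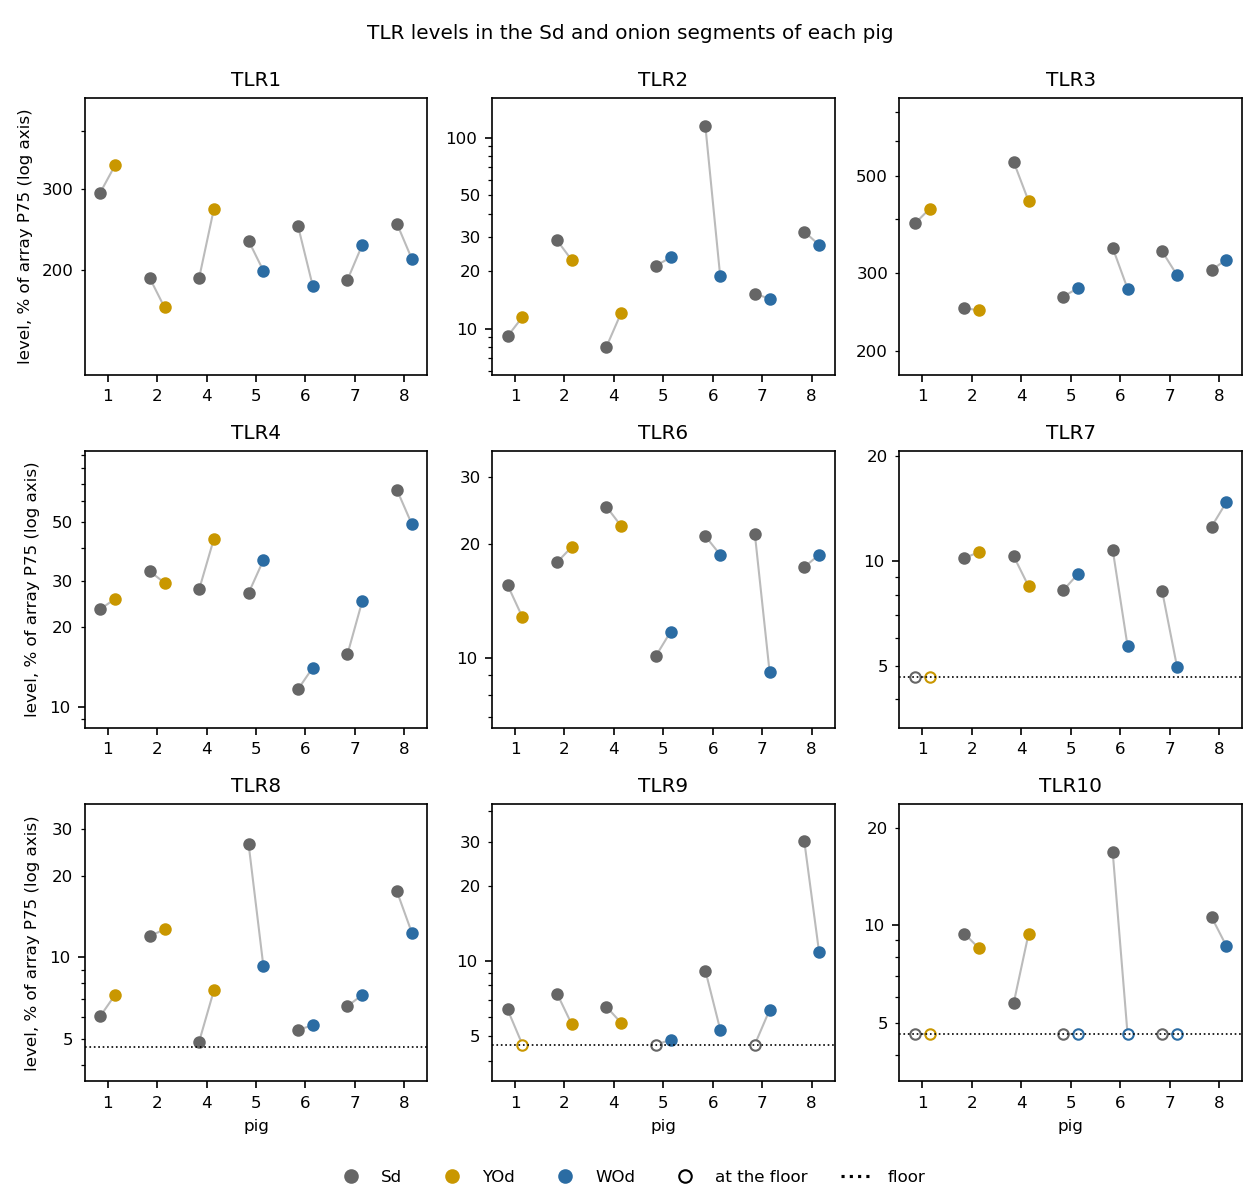
Level of each TLR (vertical axis, percent of the 75th percentile of the array, log scale with its own range per receptor) in the Sd segment (grey) and the onion segment (yellow for YOd, blue for WOd) of each pig (horizontal axis), with a line joining the segments of a pig. Open circles lie at the floor of 4.64% (dotted line), and the Sd segment of pig 6 stands out for TLR2 at 115% and for TLR10 at 16.9%.

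Of the receptors for bacterial lipopeptides, TLR1 was even across the Sd segments and TLR2 was not. TLR1 ranged from 190% over a median of 231% to 294% in the 7 Sd segments, from 166% to 337% in the 3 YOd segments and from 184% to 227% in the 4 WOd segments. The 3 groups overlapped, and the onion segment was higher than the Sd segment of the same pig in pigs 1, 4 and 7 and lower in pigs 2, 5, 6 and 8. TLR2 ranged from 8.04% over a median of 21.3% to 115% in the Sd segments. Its levels were 11.5%, 22.8% and 12.1% in the YOd segments of pigs 1, 2 and 4. They were 23.6%, 18.8%, 14.4% and 27.4% in the WOd segments of pigs 5 to 8. The highest value by far was that of Sd in pig 6, and the next highest Sd value was 32.2% in pig 8.

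TLR6, which pairs with TLR2 for diacylated lipopeptides, lay between 10.1% and 25.0% in the Sd segments, with a median of 17.9%. It measured 12.8%, 19.6% and 22.2% with YOd and 11.7%, 18.7%, 9.17% and 18.7% with WOd. The low value belonged to pig 7, whose Sd segment had 21.3%, and the groups otherwise covered the same range. TLR10 was at the floor in the Sd segments of pigs 1, 5 and 7 and measured 9.44%, 5.78%, 16.9% and 10.6% in those of pigs 2, 4, 6 and 8. In the onion segments it was above the floor in pigs 2, 4 and 8, at 8.49%, 9.44% and 8.64%. Pigs 1, 5 and 7 were thus at the floor in both segments and carry no ratio for TLR10, and in pig 6 the receptor was above the floor in 1 segment of 2.

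The ratios of the segments of a pig followed these levels. For TLR2 the log2 ratio of onion over Sd was 0.33, -0.35 and 0.59 in the YOd pigs 1, 2 and 4, and 0.14, -2.61, -0.08 and -0.23 in the WOd pigs 5 to 8. In pig 6, only 12 of 2400 genes had a lower ratio than TLR2. The log2 ratio of TLR10 in pig 6 was -1.86, an upper bound because the WOd segment was at the floor, and 32 genes had a lower ratio there. Both receptors thus took their lowest ratio in pig 6, the pig whose Sd array had the high B cell markers. This was not particular to them, since TLR1, TLR3 and TLR7 also had their lowest log2 ratio there, with -0.44, -0.31 and -0.92.

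The summed B cell markers of pig 6 were 274% in the Sd segment and 9.27% in the WOd segment, where both were at the floor. CCL20, a chemokine of epithelium that attracts lymphocytes and dendritic cells, had its highest level in the same Sd segment, 4931% against 441% in the WOd segment of pig 6. CD180, a TLR homologue of B cells and myeloid cells, had 98.2% and 28.4% in these segments. Its level was higher than in the Sd segment of pig 6 in the WOd segment of pig 5 (131%). The same held for the Sd segments of pig 8 (127%) and pig 5 (99.8%), which did not have high B cell markers. CCL20 and CD180 belong to the lists given later but were singled out after their values were seen. The part of the B cell signal in the TLR2 and TLR10 values was not tested. Without pig 6, the limma estimate for onion over Sd changed from -0.31 to 0.07 for TLR2 and from -0.23 to 0.04 for TLR10.

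**Figure D2:**
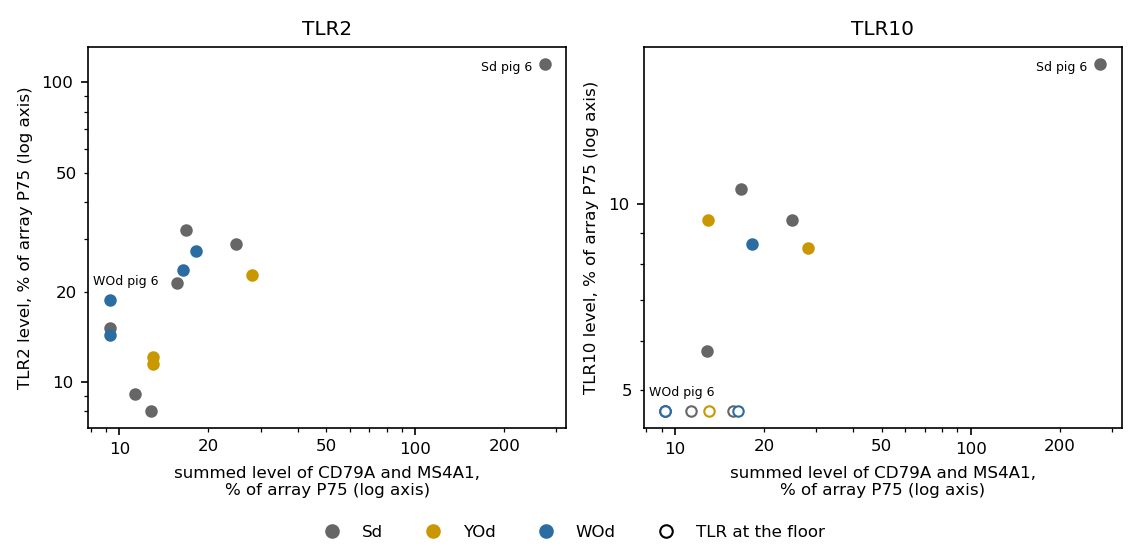
Level of TLR2 (left) and TLR10 (right) against the summed level of the B cell markers CD79A and MS4A1 on each of the 14 arrays, all in percent of the 75th percentile of the array on log axes. Circles are arrays coloured by group, open where the TLR was at the floor, and the Sd array of pig 6 lies alone at the upper right with 274% for the markers.

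TLR4, the lipopolysaccharide receptor, differed more between pigs than between the segments of a pig. Its Sd levels were 23.5%, 32.7%, 27.9%, 27.0%, 11.7%, 15.8% and 66.4% in pigs 1, 2, 4, 5, 6, 7 and 8. The onion segments of the same pigs had 25.7%, 29.5%, 43.4%, 36.0%, 14.1%, 25.2% and 49.3%. Pig 8 was the highest and pig 6 the lowest in either segment. The share of the variance of TLR4 that lay between pigs was 0.836, and the median of this share over 2400 genes was 0.623. The log2 ratio was above 0 in 5 of 7 pigs, from -0.43 in pig 8 to 0.67 in pig 7.

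The other TLR4 probe that was well above background on 14 arrays gave a ratio of the same sign in 4 of 7 pigs, and the probe that was so on 12 arrays in 3 of 7, with mean log2 ratios of 0.20 and -0.09 against 0.22. The direction of TLR4 in single pigs therefore depended on the probe. Of the 8 macrophage and dendritic cell markers, CD163, AIF1 and SIRPA were named. Their summed level was highest in the Sd segment of pig 8 (4283%) and lowest in the WOd segment of pig 6 (1583%). A single marker had 3153% in that Sd segment of pig 8. The lowest of the 3 had 98.8% there, against 180% in the Sd segment of pig 6, so the markers did not all follow the sum. The sum ranged from 1664% to 4283% with Sd, from 2278% to 3225% with YOd and from 1583% to 3301% with WOd. None of the 3 markers was at the floor on any array. Other lists also had lower sums in pig 6 than in pig 8. In the Sd and WOd segments, T cell markers summed to 339% and 315% in pig 6 and 1374% and 1008% in pig 8. Endothelium markers had 294% and 296% against 758% and 761%, and neutrophil markers 116% and 133% against 426% and 399%. Enterocyte and goblet and Paneth sums were higher in pig 6, and those of B cells and smooth muscle differed in direction by segment. The part of any list in the TLR4 levels was not tested.

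TLR3, the receptor for double-stranded RNA, was the steadiest of the family within pigs. It ranged from 250% over a median of 337% to 538% in the Sd segments, from 247% to 438% with YOd and from 277% to 323% with WOd. Pig 4 was highest with Sd as with onion digest, and a share of 0.863 of the variance lay between pigs. The log2 ratio stayed between -0.31 and 0.11 in the 7 pigs, with an SD of 0.18 that stood at the 5.67th percentile of the 2400 genes. Its other probe gave a ratio of the same sign in 6 of 7 pigs. The ratios of that probe spread more, from -0.51 in pig 7 to 0.20 in pig 2, with an SD of 0.27.

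TLR7 and TLR8, the receptors for single-stranded RNA, are neighbours on the X chromosome, and TLR7 lies within the span that the Sscrofa11.1 annotation gives TLR8. TLR7 was at the floor in both segments of pig 1 and had Sd levels between 8.19% and 12.5% in the other pigs. Its onion levels were 10.6% and 8.45% with YOd in pigs 2 and 4, and 9.17%, 5.70%, 4.97% and 14.7% with WOd in pigs 5 to 8. The onion segment was lower by more than 1.5-fold in pigs 6 and 7. TLR8 had Sd levels of 6.05%, 11.98%, 4.87%, 26.3%, 5.39%, 6.59% and 17.6% in pigs 1, 2, 4, 5, 6, 7 and 8. Its onion levels in the same order of pigs were 7.26%, 12.7%, 7.56%, 9.25%, 5.60%, 7.26% and 12.4%. The Sd segment of pig 5 was the highest of all 14, and its log2 ratio of -1.51 was undercut by 16 of 2400 genes. The other pigs had TLR8 ratios from -0.51 to 0.63. Without pig 5, the limma estimate of TLR8 for onion over Sd changed from -0.12 to 0.11.

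TLR9, the receptor for CpG DNA, was lower with onion digest in 5 of 7 pigs. Its Sd levels were 6.41%, 7.42%, 6.57%, 9.16% and 30.2% in pigs 1, 2, 4, 6 and 8, with pigs 5 and 7 at the floor. The onion levels were 5.58%, 5.65%, 5.33% and 10.9% in pigs 2, 4, 6 and 8, with pig 1 at the floor, and 4.84% and 6.38% in pigs 5 and 7. The Sd segment of pig 8 was again the highest, and 14 of 2400 genes had a lower ratio in that pig than TLR9 with -1.48. Ratios of pigs 1, 5 and 7 are bounds, since 1 of the segments was at the floor. The same Sd array had the highest summed level of the macrophage and dendritic cell markers, though not of each marker, and the most outlier spots, as given above. The part of either was not tested.

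**Figure D3:**
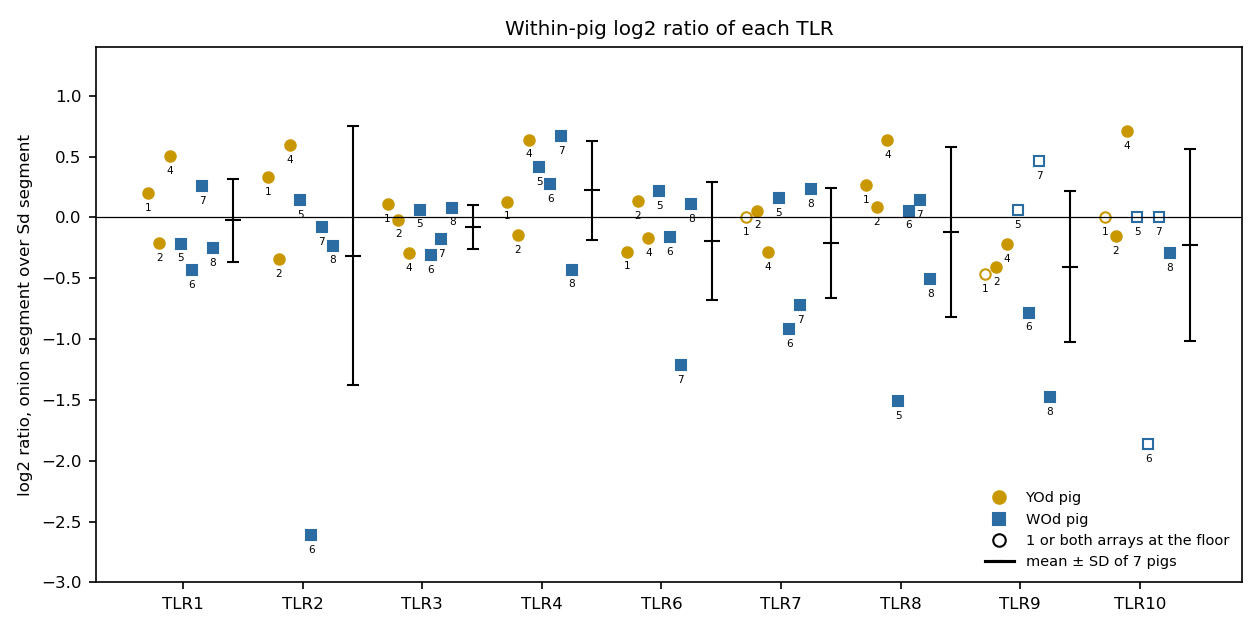
Within-pig log2 ratio, onion over Sd (vertical axis), for each TLR and pig, with the pig number under each symbol, circles for YOd pigs, squares for WOd pigs and open symbols where 1 or both arrays were at the floor. The bar is the mean ± SD of 7 pigs, and the lowest single ratios were those of TLR2 and TLR10 in pig 6 (-2.61 and -1.86), TLR8 in pig 5 (-1.51) and TLR9 in pig 8 (-1.48).

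The spread over the Sd segments, 1 per pig, was larger for most TLR than for a typical gene. It holds differences between segments and arrays as well as between pigs. The SD of the log2 level over the Sd segments was 1.30 for TLR2, 0.94 for TLR8, 0.93 for TLR9, 0.80 for TLR4 and 0.74 for TLR10. It was 0.47 for TLR7, 0.42 for TLR6, 0.37 for TLR3 and 0.25 for TLR1. Over 2400 genes the median SD was 0.39, so TLR1 and TLR3 were under it and the other 7 above it. The SD of the 7 within-pig ratios had a median of 0.49 over the 9 receptors and of 0.33 over the 2400 genes. It was under the median of all genes for TLR3 alone. The share of variance between pigs had a median of 0.548 over the 9 receptors, against 0.623 over all genes. That share was under 0.623 for TLR1, TLR2, TLR6, TLR8 and TLR10 and above it for TLR3, TLR4, TLR7 and TLR9.

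The comparison of YOd with Sd asked which receptors yellow onion affected within pigs 1, 2 and 4. TLR9 was lower and TLR8 higher in each of the 3 pigs, with TLR9 at the floor in the YOd segment of pig 1, and the probes that stood for the other 7 receptors went either way or were at the floor. The other TLR4 probe that was well above background on all arrays was higher in each of these pigs, with log2 ratios of 0.26, 0.49 and 0.58. A gene counted as affected, by the thresholds of the study, when its fold change was above 1.5 and its raw p from limma with the pig as a block was below 0.05, and the p adjusted after Benjamini and Hochberg is given beside it. None of the 9 receptors was called affected, while 4.53% of the 2449 genes tested were. TLR9 had a log2 fold change of -0.36 ± 0.14 (SE, n = 3 pigs), with a raw limma p of 0.0400 and an adjusted p of 0.386. Among the 9 probes that stood for a receptor it was the only one with a raw p under 0.05, a level that 11.2% of all genes reached. With every probe tested, the other TLR4 probe had 0.44 ± 0.15 with a raw limma p of 0.0237 and an adjusted p of 0.414, short of 1.5-fold. The YOd levels of TLR9 lay below its Sd levels without overlap, which held downwards for 0.939% of the genes. These TLR9 levels were close to the floor, and the direction of TLR9 turned with normexp background correction, to 0.03. TLR8 had 0.33 ± 0.16 with a raw limma p of 0.0887 and an adjusted p of 0.386. An increase in each of the 3 pigs was found for 33.4% of all genes and a decrease for 7.06%. The median log2 fold change was 0.16 over the TLR and 0.14 over all genes tested.

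The comparison of WOd with Sd asked the same for white onion in pigs 5, 6, 7 and 8. Of 8 receptors tested, TLR4 had a positive estimate and 7 a negative one, though TLR6 turned positive with the slide as a block and TLR7 with the authors' processed values, and none was called affected, against 1.19% of 2429 genes. TLR10 was above the floor on 3 of 8 arrays and was not tested here. No receptor had a raw p under 0.05, which 2.76% of the genes had, and all adjusted p were 0.999. The largest estimate was that of TLR2, -0.70 ± 0.45 (SE, n = 4 pigs), and it was -0.06 without pig 6. TLR8 had -0.46 ± 0.28 and TLR9 had -0.43 ± 0.32. Both were called affected, with estimates of -0.65 and -0.73 and adjusted limma p of 0.884 and 0.843, when pig 7 was left out. The median log2 fold change was -0.29 over the TLR and 0.05 over all genes.

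Pig 7 was also 1 of the 2 pigs, with pig 2, whose arrays lay on different slides, and both of their Sd arrays were on slide 5 in scan session 2. In the other pigs, both arrays shared a slide, so that their ratios are values within a slide. With the slide as a further block, TLR8 and TLR9 were called affected by WOd as well, with the same estimates, raw limma p of 0.0483 and 0.0287 and adjusted p of 0.880 and 0.818. Pig 5 had the highest TLR8 and pig 8 the highest TLR9 with Sd. With the pig block alone, TLR8 had -0.10 without pig 5 and TLR9 had -0.09 without pig 8.

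With both onions together in 7 pigs, TLR4 had a positive mean ratio and the other 8 receptors a negative one, of which TLR7 was positive in the authors' processed values and TLR1, TLR2, TLR8 and TLR10 turned positive when a single pig was left out. The mean log2 ratio was -0.40 ± 0.62 (SD, n = 7 pigs) for TLR9, -0.31 ± 1.06 for TLR2 and 0.22 ± 0.40 for TLR4. It was -0.23 ± 0.79 for TLR10, -0.21 ± 0.45 for TLR7, -0.20 ± 0.49 for TLR6, -0.12 ± 0.70 for TLR8, -0.08 ± 0.18 for TLR3 and -0.02 ± 0.34 for TLR1. Each mean was smaller than its own SD. The exact two-sided sign-flip permutation test over pigs gave p from 0.141 for TLR9 to 0.922 for TLR1, where 0.0156 was the smallest p that 7 pigs allow. In limma no receptor was called affected, against 1.25% of 2400 genes, and none had a raw p under 0.05, against 7.04%. The adjusted p lay between 0.652 and 0.954. TLR9 came closest, with a raw limma p of 0.0659, and without pig 7 it had -0.55 with a raw p of 0.0133 and an adjusted p of 0.353, short of 1.5-fold. The 95% confidence intervals of the fold change were narrowest for TLR3, from 0.815 to 1.10, and for TLR1, from 0.807 to 1.20. They were widest for TLR2, from 0.493 to 1.31. Fold changes of TLR7, TLR9 and TLR10 depend on the floor, without which they were -0.19, -0.31 and -0.32, and a pig with both segments at the floor entered as a ratio of 0.

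**Figure D4:**
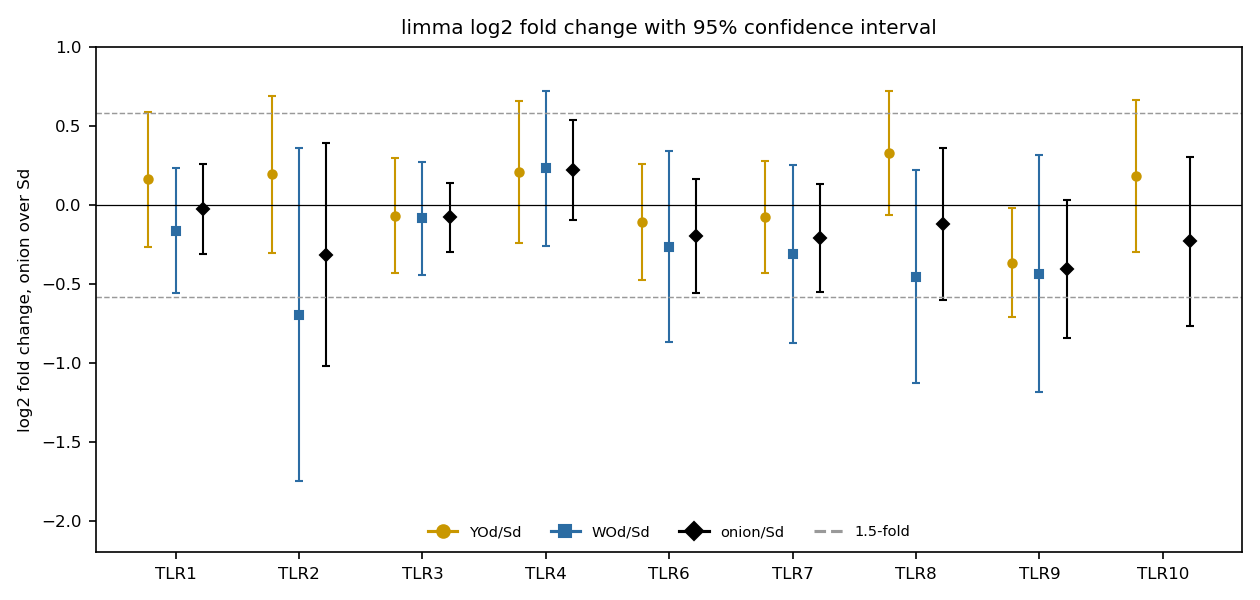
Limma log2 fold change of onion over Sd (vertical axis) with its 95% confidence interval for each TLR in the YOd pigs (yellow circles, n = 3), the WOd pigs (blue squares, n = 4) and all pigs (black diamonds, n = 7), with dashed lines at 1.5-fold. The only interval that leaves out 0 is that of TLR9 in YOd/Sd, from -0.71 to -0.02, and TLR10 was not tested in WOd/Sd.

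Whether yellow and white onion differed was tested by subtracting the WOd effect from the YOd effect in 1 fit of the 7 pigs. No receptor was called, against 3.52% of 2497 genes, with adjusted p from 0.852 to 0.986. No raw p was under 0.05, which 4.12% of the genes had. The largest differences on the log2 scale were 0.89 ± 0.62 (SE) for TLR2, 0.78 ± 0.39 for TLR8 and 0.72 ± 0.46 for TLR10. For TLR3 the 95% confidence interval of the difference ran from -0.44 to 0.48 and for TLR4 from -0.72 to 0.67. TLR8 passed the thresholds without pig 6, at 0.95, and without pig 7, at 0.98, with adjusted p of 0.870 and 0.834. With the slide as a block, TLR1 at 0.65 and TLR8 at 1.10 passed them, with adjusted p of 0.592 and 0.612. Without pig 6 the difference of TLR2 was 0.25 and that of TLR10 was 0.28. The onions were given to different pigs, so a difference between onions and one between sets of pigs cannot be told apart.

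Transcripts of the proteins that present ligands to TLR4 were measured in every segment. CD14 and LBP, which hand lipopolysaccharide to TLR4, and LY96, its binding partner, were above the floor in all 14 segments. CD14 ranged from 50.4% to 136%, LY96 from 159% to 577% and LBP from 15.0% to 174%. Their log2 fold changes for onion over Sd were 0.26, 0.15 and 0.14, with adjusted limma p of 0.652, 0.690 and 0.789. Of 8 co-receptors and transport proteins, 7 were named and tested, and none was called in any comparison. The median over these 7 was 0.15 for onion over Sd, where all genes had 0.09. UNC93B1, which carries the endosomal TLR from the endoplasmic reticulum, had no probe with a matching accession.

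Of the 5 adaptors 2 were named, MYD88 and TICAM2, and of 19 kinases and ubiquitin ligases 8. MYD88, the adaptor of all TLR but TLR3, ranged from 14.8% to 38.2% and had a log2 fold change of -0.09 for onion over Sd. IRAK4, the kinase recruited by MYD88, had 0.04 and TRAF6, the ubiquitin ligase downstream of it, had 0.08. None of these 10 genes was called in any comparison in which it was tested. Of the 13 inhibitors 3 were named, and NFKBIA and TNFAIP3, which restrain NF-kappaB, had 0.01 and -0.03. Both had their highest level in the Sd segment of pig 6.

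Among the 6 named of 10 transcription factors, FOS, a subunit of AP-1, was called in the test of the difference between onions. Its log2 ratio was -2.75, -0.14 and -0.25 in the YOd pigs 1, 2 and 4 and -0.46, 0.96, 1.5 and 0.46 in the WOd pigs 5 to 8, so that every YOd pig and 1 WOd pig were below 0. The difference was -1.66 ± 0.67 (SE), with a raw limma p of 0.0362 and an adjusted p of 0.852, and it was -0.81 and no longer called without pig 1, whose Sd level of 447% was the highest of all segments. The call was also lost without pig 6, 7 or 8 and with quantile normalization. All 20 genes of the list of induced cytokines and enzymes were named and 16 were tested in each comparison. CCL2, a monocyte chemokine, was the only one called. Its log2 ratio was 1.2, 0.12 and 0.67 in the YOd pigs and 0.10, -0.96, -0.76 and -0.26 in the WOd pigs. It had 0.66 ± 0.22 for YOd over Sd (raw limma p of 0.0209, adjusted p of 0.386) and 1.13 ± 0.34 for the difference between onions (raw p of 0.00845, adjusted p of 0.852). The YOd/Sd call was lost without pig 1, at 0.40, and without pig 4, at 0.66, and also without scaling, at 0.35, with normexp and without the pig as a block. CXCL8, the neutrophil chemokine, had -0.02 for onion over Sd.

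Over the 7 pathway lists together, 54 of 87 genes were named. The numbers called were 1 of 47 tested in YOd/Sd, 0 of 45 in WOd/Sd, 0 of 45 in onion/Sd and 2 of 45 for the difference, where 4.53%, 1.19%, 1.25% and 3.52% of all genes were called. At a raw limma p under 0.05 there were 4, 0, 2 and 2. The median log2 fold change of the lists was 0.08 in YOd/Sd, 0.05 in WOd/Sd and 0.02 in onion/Sd, against 0.14, 0.05 and 0.09 over all genes.

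The levels of the 6 receptors above the floor on all arrays were set against each other and against the other genes. Over 14 arrays, which share pigs and slides in pairs, Pearson's r of the 15 pairs of receptors ranged from -0.59 (TLR3 and TLR8) to 0.58 (TLR4 and TLR8), with a median of -0.08. The partners TLR1 and TLR2 had r = -0.13, and TLR2 and TLR6 had 0.08. TLR1 and TLR6 are neighbouring and similar genes with 1 probe each, and their r was -0.27. Whether a probe also bound transcripts of the neighbour was not tested.

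Of 2181 other genes above the floor on all arrays, those with the level most like that of TLR2 were CLU, a secreted chaperone, and CD55, an inhibitor of complement, with r = 0.84 and 0.83. Without the Sd array of pig 6 these were 0.73 and 0.62. For TLR4 they were ADORA3, an adenosine receptor, and the chemokine XCL1, both with r = 0.94, and for TLR8 CAV1 and ANXA1 with 0.90 and 0.87. TLR3 was most like NR1I2, the nuclear receptor for xenobiotics, and AQP8, a water channel, with 0.84 and 0.81. TLR6 was like GFPT1, an enzyme of hexosamine synthesis, with 0.94, and TLR1 was most like CWF19L2 and TMEM59, with 0.91 and 0.86. These values describe the likeness of levels over 14 arrays of 7 pigs and were chosen as the highest of 2181.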

How the data were processed

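Gene expression of 14 segments of 7 pigs was measured with Agilent microarrays of 1 colour. What the authors deposited per array was the scanner output of Feature Extraction 10.7.3.1, of which the background-corrected intensity, the raw median intensity and the local background intensity were used. A second deposited table holds log2 values of 28369 probes, each centred on its mean, whose normalization is not given in the sources used here. The samples were grouped by their labels. Pig 3 was not analysed here.

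Outlier spots were left out, spots of a probe averaged, and each array scaled to its 75th percentile. The floor was set at the pooled 40th percentile (log2 of -4.43), and log2 values were taken after it. Names came from RefSeq accessions matched to the Sscrofa11.1 gene table, which gave 3020 genes from 6686 of 43603 probes. That table was used for names and neighbours only. The S3 Table of the study added 0 TLR probes. A gene was represented by its probe of highest mean, and it entered a fit if it exceeded the floor on at least as many arrays as the smallest group had. Fits used limma 3.58.1 in R 4.3.3 over all genes and blocked on the pig, since the study's methods compare segments within animals. The segments of a pig deviated together, with r from 0.517 to 0.745 over 2182 genes. Means over pigs were tested with exact two-sided sign-flip permutation tests. The fitting code was first checked on simulated arrays in which 200 genes were changed.

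The members, the 7 pathway lists and the 8 marker lists were chosen with earlier results of these data known. Named were all TLR, CD14, LY96, LBP, UNC93B1, MYD88, TICAM1, IRAK4, TRAF6, NFKBIA, TNFAIP3, CXCL8 and TOLLIP where a probe was named (UNC93B1, TICAM1 and TOLLIP had none), list genes past the thresholds, and for each TLR above the floor on all arrays the 2 genes with the highest r. One gene of the B and plasma cell list and 1 gene chosen by r are not reported here. Marker lists were enterocyte, goblet and Paneth, T cell, B and plasma cell, macrophage and dendritic cell, neutrophil, endothelium and smooth muscle. Alternatives were quantile normalization, no scaling, normexp background correction (offset 50), no floor, and a filter on all arrays or none. Others were the mean of the probes of a gene, every probe of the array (named or not), the authors' values and no replicate block. The last were the slide as a block, pigs with both arrays on 1 slide, and each pig left out in turn.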

Additional observations from a re-analysis of the deposited data

Results flagged for a closer look

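In 32 sets of 4 to 7 values (the levels over the Sd or WOd segments and the ratios over all or the WOd pigs, for each receptor), 4 held a value far from the rest by Dixon's test at its 95% level, where chance flags about 1 in 20. The sets share values and are not independent. Pigs at the floor in both segments were left out of the ratios, and 4 sets of TLR9 and TLR10 with more than 1 level at the floor or fewer than 4 ratios were not tested. The log2 ratio of TLR2 in pig 6, -2.61, stood apart among all 7 pigs and among the 4 WOd pigs. The log2 ratio of TLR6 in pig 7 was -1.21. Of the levels, on the log2 scale, TLR7 stood apart in the Sd segment of pig 1 with -4.43, which is the floor.

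The effects of the onions differed by the test of the difference itself, at raw limma p, for CCL2 with 1.13 and for FOS with -1.66 on the log2 scale, neither of which held after Benjamini-Hochberg adjustment. The causes of these values were not tested.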

How the results depend on the processing

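No alternative called a TLR in YOd/Sd or in onion/Sd. The number of TLR called rose from 0 to 2 in WOd/Sd (TLR8 and TLR9) and from 0 to 2 in the difference between onions (TLR1 and TLR8) with the slide as a block. Pigs with both arrays on 1 slide gave the same 2 and 2. The slide block gives pigs 2 and 7 no weight, so these settings rest on the same pigs and do not count as separate results. With each pig left out, the number of TLR called ran from 0 to 2 in WOd/Sd and from 0 to 1 in the difference. The 2 in WOd/Sd came without pig 7, again on the same pigs. Without the replicate block the number of TLR called was 0 in each comparison. Of all named genes, 111, 29, 30 and 88 were called in YOd/Sd, WOd/Sd, onion/Sd and the difference. Without the replicate block these counts fell to 20, 10, 10 and 5. They were 325, 87, 77 and 191 with the slide as a block and 65, 12, 20 and 48 with normexp. With the authors' values they were 63, 14, 19 and 55. When every probe of the array was tested, named or not, 1303, 327, 216 and 1570 probes were called. With each pig left out the counts of named genes ran from 56 to 327, 44 to 87, 18 to 49 and 44 to 153. In the pathway lists, the count in YOd/Sd went from 1 to 3 without scaling, to 2 without the floor and with the mean of the probes, to 0 with normexp and without the replicate block, and to 9 with the slide as a block or on 1 slide. With a pig left out it was 0 to 9. In WOd/Sd it went from 0 to 1 with the slide or on 1 slide and to 0 to 3 with a pig left out, and in onion/Sd from 0 to 2 with the slide or on 1 slide. The difference went from 2 to 1 with quantile normalization or without the replicate block, to 6 with the slide or on 1 slide, and to 1 to 6 with a pig left out.

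Without scaling, the median of all genes in YOd/Sd moved from 0.14 to -0.16, and TLR1 turned to -0.15, TLR2 to -0.12, TLR4 to -0.10 and TLR10 to -0.064, while CCL2 in onion/Sd turned to -0.13. With the authors' values TLR2 in YOd/Sd turned to -0.049, TLR7 to 0.053 in WOd/Sd and 0.030 in onion/Sd, and CCL2 to -0.0054. With normexp, TLR6, TLR7 and TLR9 turned to 0.052, 0.12 and 0.033 in YOd/Sd. TLR6 in WOd/Sd turned to 0.053 with the slide as a block and on 1 slide. With each pig left out, signs changed in YOd/Sd for TLR1 (-0.0074 to 0.35), TLR2 (-0.0062 to 0.46), TLR3 (-0.16 to 0.046), TLR4 (-0.0081 to 0.38), TLR7 (-0.14 to 0.028) and TLR10 (-0.076 to 0.35). They changed in WOd/Sd for TLR6 (-0.42 to 0.053), and in onion/Sd for TLR1 (-0.11 to 0.045), TLR2 (-0.47 to 0.069), TLR8 (-0.25 to 0.11), TLR10 (-0.27 to 0.043), CCL2 (-0.18 to 0.18) and FOS (-0.36 to 0.35). The causes were not tested. Where a pig left out leaves few pigs, the spread is pooled over genes. TLR7, TLR9 and TLR10 lay near background, which limits their ratios.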
